A study of Mus musculus with 12 samples.

Results

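The genes described here encode the subunits of the standard 26S proteasome in mouse osteoclast cultures. They were taken as the protein-coding genes of the deposited expression table whose symbol is Psma, Psmb, Psmc or Psmd followed by a number, leaving out the immunosubunits Psmb8, Psmb9 and Psmb10. The rule gave 36 of the 55806 genes in the table. By their place in the particle these are 8 genes of the 20S alpha ring, 8 of the 20S beta ring, 6 ATPases of the 19S base, 3 other base subunits, 8 lid subunits and 3 assembly chaperones. The 36 genes lie on 16 chromosomes. Of the 36, 34 reached an FPKM (a fragment count divided by the length of the gene and by the size of the library) of at least 1 in at least 3 libraries and were tested. The name constitutive does not hold for every gene that the rule takes. Psma8, which belongs to a form of the core known from testis, was low, at 0.231 to 1.73 FPKM. Psmb11, the beta subunit of the thymus proteasome, was at 0. The chaperones Psmd5, Psmd9 and Psmd10 help to build the base without staying in the mature particle.

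The 26S proteasome breaks down proteins that carry ubiquitin chains. Its 20S core is a barrel in which outer rings of alpha subunits form the gate and inner rings of beta subunits hold the proteolytic sites, and its 19S cap binds ubiquitin, removes it and unfolds the substrate with a ring of ATPases. In the osteoclast lineage the proteasome is known for degrading inhibitors of NF-kB after the receptor RANK is engaged, and proteasome inhibitors are known to reduce osteoclast formation.

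Osteoclasts, the multinucleated cells that resorb bone, were grown from bone marrow monocytes of mice aged 8 to 12 weeks, kept for 4 days with the cytokines M-CSF and RANKL. Both sexes had a group labelled Per2 knockout and a group labelled control, which makes 4 groups of 3 libraries, with 1 library of each group in each of 3 labelled batches. Per2 is a core clock gene whose protein represses the clock. The knockout is abbreviated cKO in the names of the libraries, but the cells in which Per2 was deleted, the deleted exons, the driver of the deletion, the strain and the time of day are not given in what was used here. The sample labels, which were followed, say Per2, and the title of the series says PER1. The labels call the replicates biological without saying that each came from a separate mouse, and the p-values therefore rest on the spread of these samples, which may be technical.

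The sequences around the start sites of 4 members are shown because these members changed in opposite directions in female knockouts, Psmb5 and Psmb6 upwards and Psmc6 and Psmd6 downwards. Each window runs from 250 bases before to 50 bases after the RefSeq transcription start in the build GRCm38.p6, written 5′ to 3′ on the strand of the gene. The windows are chr14:54617946-54618245 on the minus strand for Psmb5, chr11:70525107-70525406 on the plus strand for Psmb6, chr14:45329574-45329873 on the plus strand for Psmc6 and chr14:14120896-14121195 on the minus strand for Psmd6. Capitals mark the core of the antioxidant response element, TGACNNNGC on either strand, an element bound by the factors NRF1 and NRF2 that are known to activate proteasome genes.
Psmb5: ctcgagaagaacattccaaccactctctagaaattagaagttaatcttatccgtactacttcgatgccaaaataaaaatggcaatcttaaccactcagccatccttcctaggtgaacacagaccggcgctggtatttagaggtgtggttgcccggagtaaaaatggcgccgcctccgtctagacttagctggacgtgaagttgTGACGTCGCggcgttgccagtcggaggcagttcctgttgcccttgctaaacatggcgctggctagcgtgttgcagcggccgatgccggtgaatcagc
Psmb6: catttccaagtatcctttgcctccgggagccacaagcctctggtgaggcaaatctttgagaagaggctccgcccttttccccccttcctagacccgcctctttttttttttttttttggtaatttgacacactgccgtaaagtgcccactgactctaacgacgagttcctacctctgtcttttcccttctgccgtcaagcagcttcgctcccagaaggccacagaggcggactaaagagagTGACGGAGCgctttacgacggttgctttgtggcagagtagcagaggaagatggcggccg
Psmc6: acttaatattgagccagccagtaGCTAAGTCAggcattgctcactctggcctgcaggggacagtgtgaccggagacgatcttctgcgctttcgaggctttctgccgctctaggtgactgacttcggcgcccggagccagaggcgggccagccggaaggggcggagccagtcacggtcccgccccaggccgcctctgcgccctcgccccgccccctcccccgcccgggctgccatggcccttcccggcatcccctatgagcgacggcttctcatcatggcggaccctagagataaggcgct
Psmd6: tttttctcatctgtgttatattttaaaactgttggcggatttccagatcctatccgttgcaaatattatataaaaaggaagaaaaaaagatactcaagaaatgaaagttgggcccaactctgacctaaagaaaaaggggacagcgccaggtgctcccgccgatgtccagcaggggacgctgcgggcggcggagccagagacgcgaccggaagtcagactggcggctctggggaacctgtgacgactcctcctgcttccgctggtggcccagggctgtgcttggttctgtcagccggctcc
Counted in bases from the start site, the core begins at -47 in Psmb5, at -9 in Psmb6 and, on the opposite strand, at -227 in Psmc6, and these letters are not in the Psmd6 window. It is therefore present at members that rose and at a member that fell. The 4 shown are only a part of the 11 members called in female knockouts. Psmb4, Psmc1, Psmc2, Psmd8 and Psmd5, also called there, had windows without this core. For Psmb7 and Psmd3 no window was matched. How often the core occurs can therefore not be read from the 4 shown.

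RefSeq windows were matched for 29 of the 36 members, in 31 windows. The core TGACNNNGC was in 5 of the 31 (16.1%), those of Psmb5, Psmb6, Psmc6, Psmd9 and Psmd12, against 12.4% of all 32851 windows of the same length and 14.8% of the windows of tested protein-coding genes. The box CCAAT was in 38.7% of the members' windows against 37.4% of all windows and 37.9% of those of tested genes, and the E-box CACGTG, which clock factors bind, was in 2 (6.45%), those of Psma4 and Psmd9, against 7.15% and 10.4%. The core of the interferon-stimulated response element, GAAA followed after any 2 bases by GAAA, was in 3 (9.68%), those of Psmb3, Psmd4 and Psmd9, against 3.44% and 3.38%. All motifs were searched on both strands, a stretch that matches several motifs counts for each, and a match is a description of letters and not a measured site.

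Assigned reads per library ranged from 13888150 to 17762190, apart from male knockout replicate 2 with 41145397. The reads per library over the authors' FPKM denominator were 1.07 to 1.11 in male libraries. They were 0.936 to 0.948 in female controls and 1.01 to 1.02 in female knockouts, so the deposited scaling differs between groups. Calls of members are also given on other scalings, and a result without a named scaling is on the deposited FPKM. All 8 osteoclast markers were detected, with a summed level of 8154 to 9342 FPKM for male controls, 8212 to 9206 for male knockouts, 8689 to 9621 for female controls and 10364 to 12672 for female knockouts. The summed level of 8 monocyte and macrophage markers was 2003 to 2167, 1994 to 2063, 976 to 1001 and 1551 to 1680 FPKM in the same order. In female knockouts 4 of the 8 osteoclast markers rose and none fell (Mmp9 and Acp5, called under 5 of 6 scalings, and Itgb3 and Ocstamp, called under 3), 7 of the 8 macrophage markers rose and 1 fell, 0 of 5 neutrophil markers passed the test and all 3 B cell markers fell, from a summed level of 13.5 to 21.8 to 2.74 to 4.73 FPKM. None of these markers was at 0 in all 3 libraries of a group, and the part of these cells in the results below was not tested. In bulk RNA, fewer cells of a type and less RNA per cell cannot be told apart. Per2 itself was low. Male controls had 0.579, 0.721 and 0.701 FPKM of it against 0.466, 0.390 and 0.230 in their knockouts, and female controls had 0.331, 0.530 and 0.368 against 0.258, 0.204 and 0.589. In FPKM the library labelled female knockout 3 was above every female control, against its label. It had 52 reads, and the female controls had 31, 58 and 32. As the deleted exons are not given, these values may not test the deletion. The counts of called members are therefore also given without this library. Of the marker and list calls named here, those of Ocstamp, Uchl5 and Ddi2 were lost without it, at adjusted p of 0.0538, 0.0559 and 0.0638.

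On the deposited FPKM the 34 tested members were expressed at similar levels in all 12 libraries. Their mean over the libraries ran from 4.44 FPKM for Psmd9 to 182.6 FPKM for Psma6, with a median over the members of 49.6 FPKM. The lowest value of a member in any library was 4.08 FPKM, from 453 reads. In all 34 members the highest library was less than 1.5 times the lowest, with ratios from 1.11 for Psmd2 to 1.48 for Psma5 and a median of 1.27. Of the 7327 tested genes with a mean in the same range, 52.5% stayed within 1.5 times, with a median ratio of 1.48. Only the ends of the range were matched, so these genes and the members may differ in level within it. These ratios are on the deposited FPKM and were not worked out on the other scalings, which can change them. The median coefficient of variation of a member within a group was 3.91% and the highest was 10.2%.

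**Figure D1:**
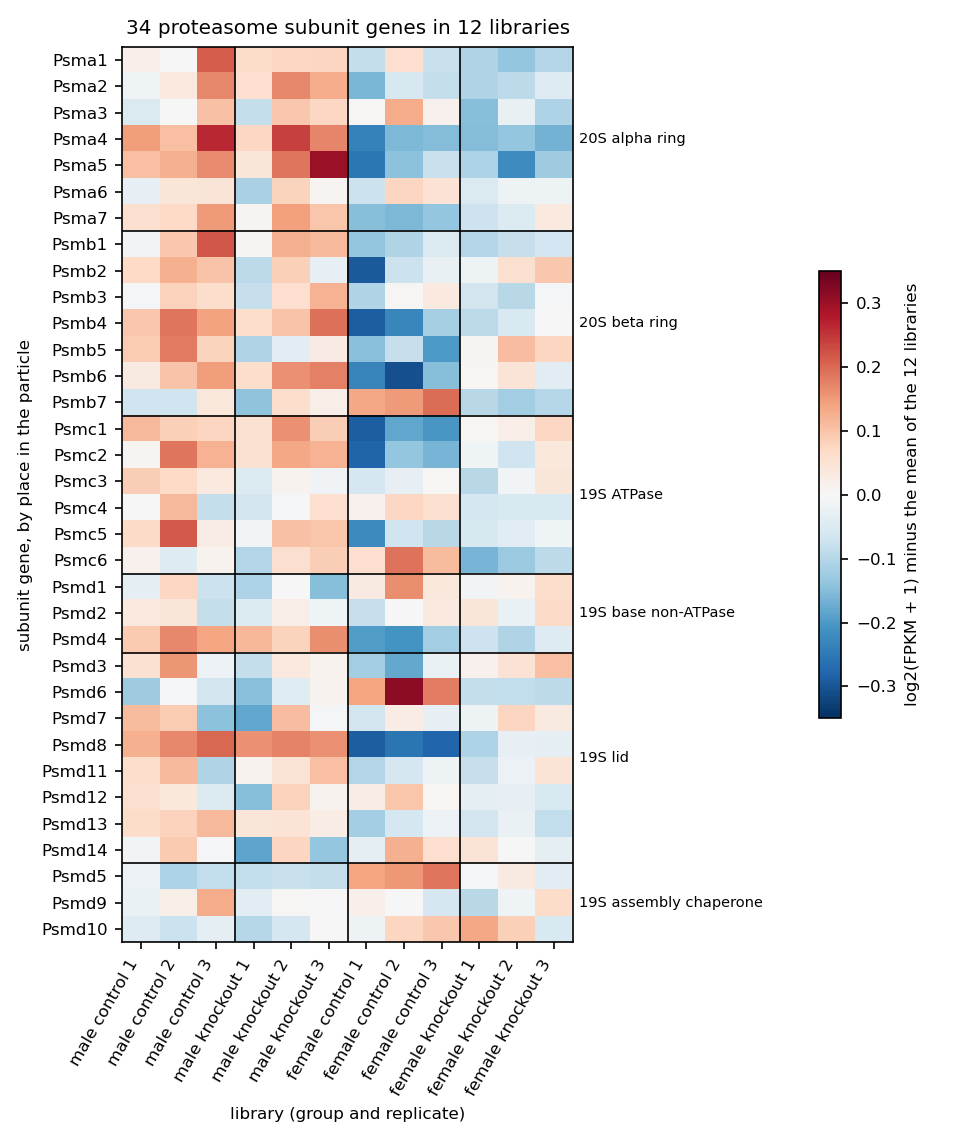
Level of the 34 tested members (rows, grouped by place in the particle) in the 12 libraries (columns), as log2(FPKM + 1) minus the mean of the member over the 12 libraries; red is above that mean and blue below it. Most alpha and beta ring rows are blue in female controls, while Psmb7, Psmc6, Psmd5 and Psmd6 are red there; no ring member stays called lower in female than in male controls under all 6 library scalings, and several reverse.

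The levels differed between parts of the particle, each compared per length of gene. Psma6, an alpha ring subunit, had the highest mean, and Psmb5, the chymotrypsin-like catalytic subunit, followed at 167 FPKM. Psmb6, the caspase-like subunit, had a mean of 110.0 FPKM and Psmb7, the trypsin-like subunit, a mean of 40.7 FPKM. The gene lengths used were 899 bases for Psmb5, 1872 for Psmb6 and 3421 for Psmb7. Their reads over all libraries were 32019, 44467 and 29988, so these differences between genes depend on the lengths. The same holds for the size of a ratio between single genes, but not for its fold change between groups. In sums over several genes, the lengths weight each gene and can also alter the fold change. Among the ATPases the means ran from 23.0 FPKM for Psmc2 to 74.9 FPKM for Psmc1, and among the lid subunits from 16.6 FPKM for Psmd11 to 108 FPKM for Psmd8. The summed level of the 20S genes over that of the 19S genes without the chaperones was 1.35 ± 0.0630 in controls and 1.35 ± 0.0281 in knockouts of males, and 1.29 ± 0.0122 in controls and 1.31 ± 0.00551 in knockouts of females (SD, n = 3 each).

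In male cultures no member passed the test between Per2 knockouts and controls. Of the 34 members 0 were higher and 0 were lower at an adjusted p under 0.05 in limma (linear models on log2(FPKM + 1) over all 12 libraries, Benjamini-Hochberg adjustment over 12102 genes), where 0.0% of all genes were called. At an unadjusted p under 0.05 there were 1 member and 822 of all genes, and limma voom, run on reads worked out from the FPKM, also called 0 members. The median log2 difference was -0.01 over the members and 0.01 over all genes, and the members ran from -0.15 to 0.06.

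Psmb5 was the member nearest to a call in males. It stood at 177, 189 and 176 FPKM in male controls and at 155, 162 and 169.9 FPKM in male knockouts. All 3 knockout libraries were below all 3 controls, with a log2 difference of -0.15 (SE 0.0501, adjusted p = 0.653). Psmc3, an ATPase subunit, had 66.2, 65.4 and 63.8 against 60.2, 62.8 and 61.8 FPKM, a log2 difference of -0.08 (adjusted p = 0.775), again without overlap. Psmb2, a beta subunit with no active site, had a difference of -0.11 with overlapping groups. The positive differences with the smallest p were those of Psma2 (0.06), Psmb6 (0.04) and Psma5 (0.05), all with overlapping groups. Non-overlapping groups were found for 0 members above and 3 below (Psmb5, Psmc3 and Psmd13), against 7.06% and 5.24% of all genes.

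In female cultures 11 of the 34 members (32.4%) changed, in both directions and by small amounts. Psmb4, Psmb5 and Psmb6 of the beta ring, the ATPases Psmc1 and Psmc2 and the lid subunits Psmd3 and Psmd8 were higher in knockouts, to 1.12 to 1.20 times the control mean. Psmb7, the ATPase Psmc6, the lid subunit Psmd6 and the chaperone Psmd5 were lower, to 0.809 to 0.881 times the control mean. The 7 higher members and the 4 lower members compare with 24.9% of all genes called higher and 24.9% called lower, 49.8% together. Their median log2 difference was 0.01 and that of all genes was -0.01. All 11 differences had the same sign in 3 of 3 batches, as did 21 of the 34 tested members, these 11 included. The groups of all 11 did not overlap, which fixes that sign in every batch, so it adds no support.

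By place in the particle and on the deposited FPKM, 0 of 7 alpha subunits passed in either direction, and 3 of 7 beta subunits rose and 1 fell. Of the ATPases 2 of 6 rose and 1 fell, and 0 of 3 other base subunits passed. Of the lid subunits 2 of 8 rose and 1 fell, and 1 of 3 chaperones fell. Under quantile normalization the alpha subunits Psma2, Psma4 and Psma5 were called lower, with log2 differences of -0.14, -0.14 and -0.18. Without overlap of the groups, 11 members were above and 8 below, against 28.5% and 29.9% of all genes. Without the library labelled female knockout 3 the counts were 4 higher and 4 lower, and without female control replicate 1 there were also 4 higher. Psmb5, Psmb6, Psmc1 and Psmd8 passed without each library in turn, as did the 4 lower members, whereas Psmc2, Psmb4 and Psmd3 passed in 9, 8 and 8 of the 12 runs. Psmc2 had an adjusted p of 0.0884, 0.0542 and 0.0786 without female control replicate 1 and the libraries labelled female knockout 1 and 3. Psmb4 had 0.0971, 0.0698, 0.0513 and 0.0853, and Psmd3 0.0789, 0.120, 0.0644 and 0.104, without female control replicates 1 and 2 and the libraries labelled female knockout 2 and 3.

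**Figure D2:**
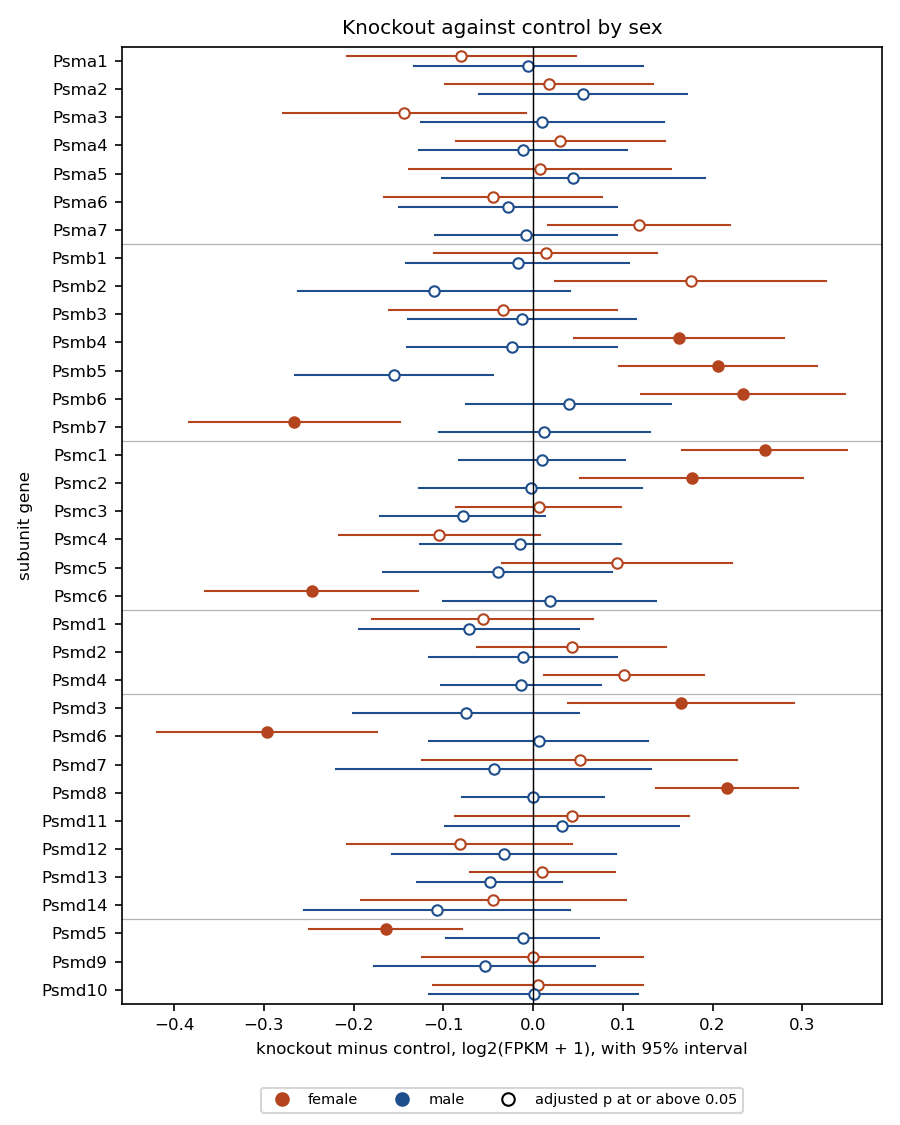
Knockout minus control for each tested member in females (orange) and males (blue), as the difference in log2(FPKM + 1) with its 95% interval from limma; filled points passed an adjusted p of 0.05. All 11 filled points are female, 7 above 0 and 4 below 0; the 7 above 0 are not called under every scaling of the libraries, and Psmb4 is at -0.01 under quantile normalization.

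The 3 catalytic subunits did not move together in females. Psmb6 stood at 92.9, 88.2 and 98.6 FPKM in female controls and at 109.8, 113 and 107 FPKM in female knockouts. Psmb5 stood at 150.4, 157 and 145 FPKM in female controls and at 168, 179 and 175 FPKM in female knockouts. For both genes every knockout library was above every control. The log2 differences were 0.23 for Psmb6 (SE 0.0518, limma adjusted p = 0.00323) and 0.21 for Psmb5 (SE 0.0501, adjusted p = 0.00552). Psmb7 went the other way, at 44.7, 45.1 and 46.7 FPKM in female controls and at 37.9, 37.3 and 37.8 FPKM in female knockouts. All knockout libraries of Psmb7 were below all controls, with a log2 difference of -0.27 (SE 0.0535, adjusted p = 0.00174).

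In males the same genes lay closer together. Psmb6 had 112, 117 and 121 FPKM in male controls and 114, 122 and 124 FPKM in male knockouts, and Psmb7 had 38.7, 38.7 and 41.8 against 36.7, 42.4 and 41.2 FPKM. The groups of both genes overlapped, with log2 differences of 0.04 (adjusted p = 0.944) and 0.01 (adjusted p = 0.986).

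**Figure D3:**
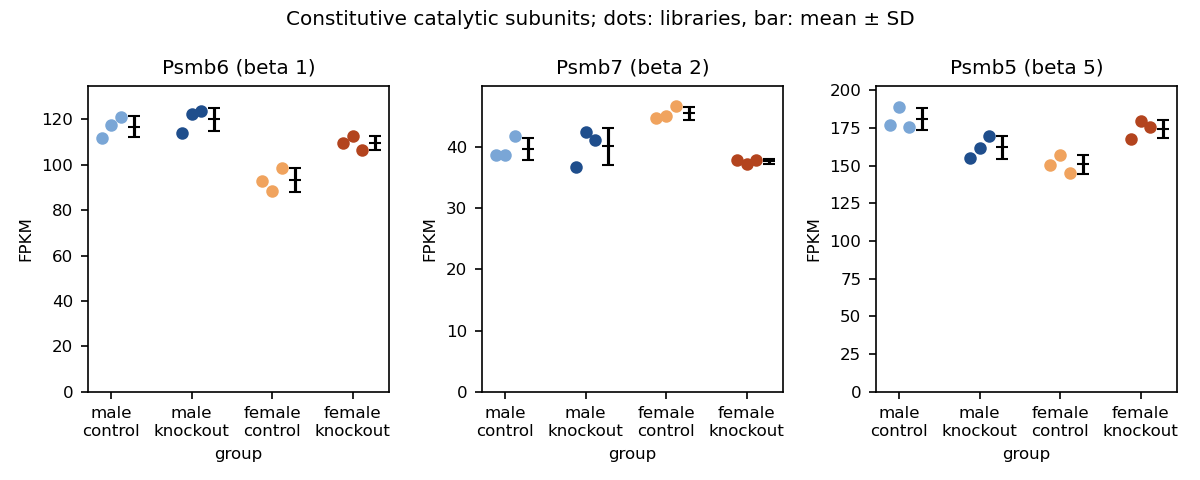
FPKM of the 3 catalytic subunits Psmb6 (beta 1), Psmb7 (beta 2) and Psmb5 (beta 5) in the 4 groups; dots are libraries and bars are mean ± SD (n = 3). Female controls have the lowest mean for Psmb6 and Psmb5 and the highest for Psmb7; for Psmb5 and Psmb6 the order of female and male controls reverses under quantile normalization.

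The other tested beta subunits have no active site in the mature core. Psmb4 stood at 85.0, 88.7 and 95.9 FPKM in female controls and at 97.6, 100.1 and 104 FPKM in female knockouts. The groups did not overlap, and the log2 difference was 0.16 (SE 0.0531, limma adjusted p = 0.0252), with -0.01 under quantile normalization. Psmb2 had 63.9, 74.6 and 77.2 against 77.7, 81.7 and 84.0 FPKM, a log2 difference of 0.18 that did not pass (adjusted p = 0.0534) but did with the batch as a block (adjusted p = 0.0189). Psmb1 and Psmb3 had differences of 0.01 and -0.03.

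Among the alpha subunits the log2 differences in females ran from -0.14 for Psma3 to 0.12 for Psma7. Psma7 had 48.6, 48.3 and 49.1 FPKM in female controls against 51.3, 52.2 and 55.4 in female knockouts, without overlap (adjusted p = 0.0527). Psma3 had 34.8, 38.0 and 35 against 31.2, 34 and 32.1 FPKM, also without overlap (adjusted p = 0.0738). With the batch as a block these passed as well, at adjusted p = 0.0355 for Psma7 and 0.0317 for Psma3. Psma6, the member with the highest mean, stood at 173, 192 and 189 FPKM in female controls against 176, 180.2 and 180.3 in female knockouts, with overlapping groups and a log2 difference of -0.04 (adjusted p = 0.528).

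The ATPases of the base form the ring that unfolds substrates and threads them into the core. Psmc1 stood at 60.9, 65.6 and 64.6 FPKM in female controls and at 74.9, 75.8 and 78.4 FPKM in female knockouts. The groups were well apart, and the log2 difference of 0.26 (SE 0.0419, limma adjusted p = 0.000425) had the smallest p among the members. Psmc2 had 18.7, 20.8 and 20.3 against 22.7, 21.8 and 23.5 FPKM, a log2 difference of 0.18 (SE 0.0564, adjusted p = 0.0225). Psmc6 had 37.2, 40.8 and 38.5 FPKM in female controls and 31.8, 32.5 and 33.4 FPKM in female knockouts, a log2 difference of -0.25 (SE 0.0539, adjusted p = 0.00295). The libraries of Psmc2 and Psmc6 did not overlap between the groups either. Psmc3, Psmc4 and Psmc5 did not pass, with differences of 0.01, -0.10 and 0.09.

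The lid removes ubiquitin chains before substrates enter the core. Psmd8, known in yeast as Rpn12, the subunit whose addition completes the lid, stood at 87.7, 89.8 and 88.4 FPKM in female controls and at 99.5, 105 and 105 FPKM in female knockouts. Every knockout library was above every control, with a log2 difference of 0.22 (SE 0.0360, limma adjusted p = 0.000502). Psmd6, a scaffold subunit of the lid, went the other way, from 40.9, 46.3 and 42.1 FPKM to 35, 34.9 and 34.8 FPKM. Its groups did not overlap and its log2 difference of -0.30 (SE 0.0556, adjusted p = 0.00112) was the largest in size among the members. Psmd3, another scaffold subunit, had 26.6, 25.5 and 28.5 against 29.3, 30.1 and 31.3 FPKM, a difference of 0.16 (SE 0.0572, adjusted p = 0.0330).

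Psmd14, the metalloprotease that cuts ubiquitin chains from substrates, stood at 39.8, 44.5 and 42.4 FPKM in female controls and at 42.2, 40.8 and 39.8 in female knockouts. In males it had 40.4, 43.5 and 40.6 against 35.7, 43.0 and 37.0 FPKM. The groups overlapped in both sexes, with log2 differences of -0.04 in females (adjusted p = 0.612) and -0.11 in males (adjusted p = 0.823). Of the other base subunits, the scaffolds Psmd1 and Psmd2 had differences of -0.06 and 0.04 in females, and the ubiquitin receptor Psmd4 had a difference of 0.10 without overlap (adjusted p = 0.0577, or 0.0491 with the batch as a block).

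The 3 chaperones bind ATPase subunits while the base is assembled. Psmd5 stood at 8.95, 9.05 and 9.31 FPKM in female controls and at 8.00, 8.24 and 7.81 FPKM in female knockouts, while male controls had 7.92, 7.4 and 7.53 FPKM and male knockouts 7.52, 7.57 and 7.54 FPKM. All female knockout libraries were below all female controls, with a log2 difference of -0.16 (SE 0.0387, limma adjusted p = 0.00457), and the male groups overlapped. Psmd10, known as gankyrin and encoded on the X chromosome, had 49.9, 53.2 and 54.0 against 55.6, 53.5 and 48.6 FPKM in females, and 48.9, 47.9 and 49.3 against 47.1, 48.5 and 50.6 FPKM in males. Psmd9 had 4.5, 4.43 and 4.21 against 4.08, 4.38 and 4.68 FPKM in females, and 4.34, 4.51 and 4.95 against 4.29, 4.45 and 4.43 FPKM in males. Both genes had overlapping groups in both sexes, with differences of 0.01 and -0.00 in females and of 0.00 and -0.05 in males.

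The tissue-restricted members were not tested. For Psma8 the male controls had 0.558, 0.975 and 0.399 FPKM and the male knockouts 0.712, 0.512 and 0.231, while the female controls had 1.73, 0.901 and 1.24 and the female knockouts 0.910, 0.799 and 0.691. These values rest on 9 to 69 reads per library. Psmb11 had 0 reads in all 12 libraries, and 3 reads, the count that 0 allows, would be 0.0166 to 0.0422 FPKM.

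How many members passed in females, in either direction, depended on the scaling of the libraries. Psmd6, Psmb7, Psmc6 and Psmd5 were called lower under all 6 scalings, and their log2 differences ran from -0.44 to -0.28, -0.40 to -0.25, -0.40 to -0.23 and -0.27 to -0.15. None of the 7 higher members was called under all 6. Psmc1 and Psmd8 were called in 5 of 6, all but quantile normalization, where both had 0.06, and the other 5 in 3 of 6.

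The split was 7 higher and 4 lower on the deposited FPKM. It was 10 and 4 both with median-ratio scaling and with limma voom on the recovered reads. It was 2 and 11 with assigned reads as the denominator, 2 and 12 with nuclear protein-coding reads and 0 and 18 with quantile normalization. The median of all genes was -0.10, -0.11 and -0.05 under the last 3, and the members' median minus that of all genes was 0.02 on the deposited scale, 0.01, 0.01 and -0.09. The share of assigned reads taken by the members was 0.526% ± 0.0146 in female controls and 0.499% ± 0.00426 in female knockouts (SD, n = 3 each), while their summed FPKM was 1984 ± 65.4 and 2051 ± 24.8.

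**Figure D4:**
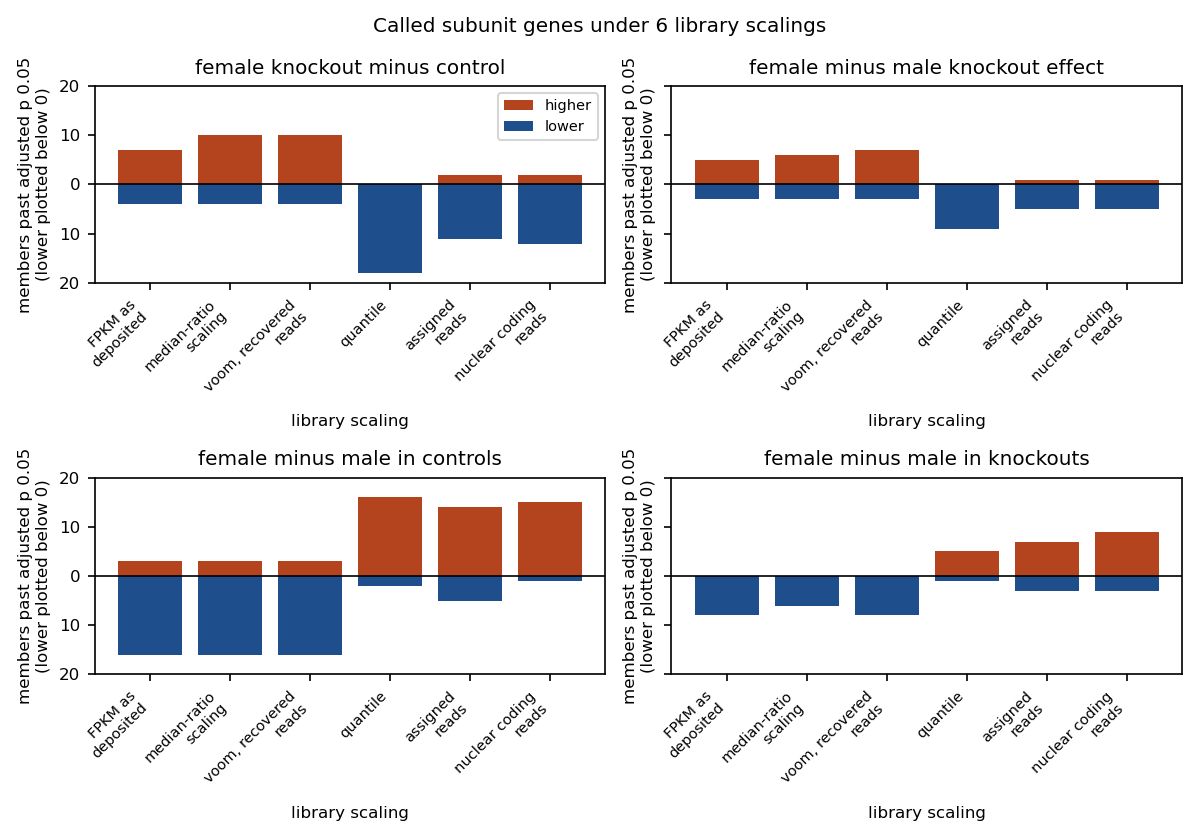
Number of members past an adjusted p of 0.05 under 6 library scalings in 4 comparisons, higher plotted above 0 and lower below 0. In females the split between knockouts and controls goes from 7 higher and 4 lower on the deposited FPKM to 0 higher and 18 lower under quantile normalization, and the split between female and male controls is 3 higher and 16 lower under 3 scalings and reverses under the others, to 16 higher and 2 lower under quantile normalization.

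The knockout effect differed between the sexes for 8 of the 34 members (23.5%), tested as the female minus the male difference. Psmb5, Psmd8, Psmc1, Psmd3 and Psmb2 had a more positive difference in females and Psmd6, Psmb7 and Psmc6 a more negative one. The 5 and 3 members compare with 17.9% and 16.7% of all genes, 34.6% together. The difference of effects was 0.36 for Psmb5 (SE 0.0709, limma adjusted p = 0.00263), 0.22 for Psmd8 (adjusted p = 0.00721) and 0.25 for Psmc1 (adjusted p = 0.00792). It was -0.30 for Psmd6 (adjusted p = 0.0122), -0.28 for Psmb7 (adjusted p = 0.0151) and -0.27 for Psmc6 (adjusted p = 0.0196). For Psmb5 the female knockouts were above and the male knockouts below their controls.

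The remaining calls were closer to the threshold. Psmd3, at 0.24 (adjusted p = 0.0404), and Psmb2, at 0.29 (adjusted p = 0.0414), each passed in 4 of the 12 runs that left out a library, with adjusted p up to 0.0934 and 0.0892, and Psmd3 had an adjusted p of 0.0503 with the batch as a block. Psmc6 passed in 11 of 12, with an adjusted p of 0.0503 without male knockout replicate 3. There were 3 higher members in place of 5 without male control replicate 2, male knockout replicate 1 or 3, female control replicate 1, or the libraries labelled female knockout 2 or 3. Psmd6, Psmb7 and Psmc6 were called under all 6 scalings, and Psmb5 under 5, with 0.19 as its lowest value. All 8 had the same sign in 3 of 3 batches, as did 19 of the 34 tested members, these 8 included. The 8 were called on these same libraries, so their matching signs add no support.

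Ratios between members of the same library are not altered by a scaling that multiplies all values of a library by the same factor, whereas quantile normalization can alter them. The ratios that follow were chosen after the values were seen and are given without a test. Psmb5, Psmc1 and Psmd8, called higher in female knockouts, are each set over a member called lower there. Lower ratios in female controls than in their knockouts therefore follow from that choice. The ratio of Psmb5 to Psmb7 was 3.36, 3.49 and 3.10 in female controls and 4.42, 4.82 and 4.64 in their knockouts. Male controls had 4.58, 4.89 and 4.21 and male knockouts 4.22, 3.82 and 4.12. Female controls were below the other groups, without overlap. The ratio of Psmc1 to Psmc6 was 1.64, 1.61 and 1.68 in female controls against 2.36, 2.33 and 2.35 in their knockouts, with 2.19 to 2.29 for male controls and 2.09 to 2.34 for male knockouts. The ratio of Psmd8 to Psmd6 was 2.14, 1.94 and 2.10 in female controls against 2.85, 3.01 and 3.02 in their knockouts, with 3.27 to 3.48 for male controls and 3.21 to 3.59 for male knockouts. Female controls again stood apart below, and for Psmd8 to Psmd6 the female knockouts lay between female controls and males.

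**Figure D5:**
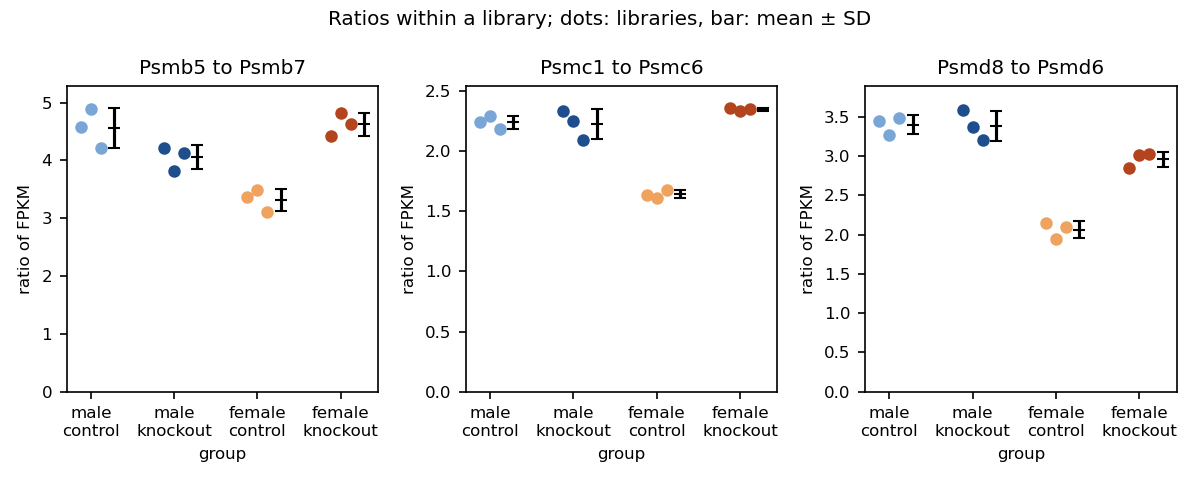
Ratios of FPKM within a library for Psmb5 to Psmb7, Psmc1 to Psmc6 and Psmd8 to Psmd6 in the 4 groups; dots are libraries and bars are mean ± SD (n = 3). The pairs were chosen after the values were seen, each a member called higher in female knockouts over a member called lower. In all 3 panels the female controls lie below every other library.

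The sum over the alpha ring relative to that over the beta ring moved less. It was 0.911, 0.879 and 0.941 for male controls and 0.938, 0.966 and 0.937 for male knockouts. It was 0.950, 0.986 and 0.951 for female controls and 0.885, 0.856 and 0.870 for female knockouts. The female groups did not overlap, and the male groups did.

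Female controls differed from male controls in 19 of the 34 members (55.9%), 3 higher and 16 lower, against 29.5% of all genes called higher and 30.7% called lower, 60.3% together. The split was the same 3 and 16 with median-ratio scaling and with limma voom, but it was 14 higher and 5 lower with assigned reads, 15 and 1 with nuclear protein-coding reads and 16 and 2 with quantile normalization. The members' median log2 difference was -0.10 against 0.00 over all genes. Relative to the median of all genes, which was 0.17, 0.19 and 0.09 under the last 3 scalings, it was -0.07, -0.06 and 0.05. The summed FPKM of the members was 2204 ± 37.8 in male controls and 1984 ± 65.4 in female controls, whereas their share of assigned reads was 0.497% ± 0.00615 and 0.526% ± 0.0146 (SD, n = 3 each).

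The calls of 4 members held under all 6 scalings. Psmd5, Psmd6 and Psmb7 were higher in female controls, with log2 differences of 0.23 (SE 0.0387, limma adjusted p = 0.000325), 0.28 (SE 0.0556, adjusted p = 0.00122) and 0.19 (SE 0.0535, adjusted p = 0.00873). For Psmd6 the male controls stood at 33.9, 36.9 and 35.4 FPKM, below all female controls. Psmd8 was lower in female controls, with male controls at 117, 121 and 124 FPKM and a log2 difference of -0.44 (SE 0.0360, adjusted p = 1.13e-06), and its value ran from -0.44 to -0.10 over the scalings. These genes are among those that differed between knockouts and controls in females, and both comparisons use the same female control libraries.

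Other members lower in female controls on the deposited scale were Psmd4 (-0.31), Psmc1 (-0.31), Psma4 (-0.35) and Psmb4 (-0.35), of which Psmc1 had 0.03 under quantile normalization. Of the 16 lower calls, Psma2 passed in 10 and Psmd3 in 9 of the 12 runs that left out a library. By place in the particle the lower calls on the deposited scale were 4 of 7 alpha subunits, 5 of 7 beta subunits, 3 of 6 ATPases, 1 of 3 other base subunits and 3 of 8 lid subunits. Without overlap, 5 members were above and 17 below, against 32.2% and 32.7% of all genes.

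Between the knockouts of the 2 sexes 8 of the 34 members (23.5%) differed, 0 higher and 8 lower in females, against 13.1% and 20.4% of all genes, 33.5% together. Of the 8, 4 were alpha subunits (Psma1, Psma2, Psma4 and Psma5), and the others were Psmb1, Psmb4, Psmd4 and Psmd8. In the 12 runs that left out a library Psma1 passed in 6, Psmb4 in 8 and Psmb1 in 4, with adjusted p up to 0.0866, 0.127 and 0.122. Psma4 stood at 73.7, 82.8 and 78.9 FPKM in male knockouts and at 62.9, 63.7 and 62.3 FPKM in female knockouts. It had a log2 difference of -0.31 (SE 0.0528, limma adjusted p = 0.00119) and was the only member called lower under all 6 scalings. Psma5 had 105, 116 and 125 against 94.3, 87.1 and 93.2 FPKM, a difference of -0.33 (SE 0.0664, adjusted p = 0.00337), called in 5 of 6. Both had female libraries wholly below the male ones.

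Psmd8 had a difference of -0.22 (adjusted p = 0.000935), Psmd4 of -0.19 (adjusted p = 0.00410) and Psma2 of -0.20 (adjusted p = 0.0138) between the knockouts. The largest positive differences by p did not pass: Psmb5 with 0.10, Psmd10 with 0.11 and Psmd5 with 0.08. The split of 0 and 8 was the same with limma voom and 0 and 6 with median-ratio scaling, and it became 7 and 3 with assigned reads, 9 and 3 with nuclear protein-coding reads and 5 and 1 with quantile normalization. It became 5 lower without male knockout replicate 2 or 3, or without the libraries labelled female knockout 1 or 2, and 1 member was higher without male knockout replicate 2 (Psmd14) or the library labelled female knockout 3 (Psmd10). Without overlap, 1 member was above (Psmd5) and 12 below, against 20.9% and 27.9% of all genes.

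The immunosubunits Psmb8, Psmb9 and Psmb10 replace Psmb5, Psmb6 and Psmb7 in the immunoproteasome, a form that immune cells and interferon favour. The ratio of Psmb8 to Psmb5 was 0.225, 0.207 and 0.276 in female controls against 0.460, 0.407 and 0.459 in their knockouts, and 0.592 ± 0.0482 for male controls and 0.680 ± 0.0359 for male knockouts. The ratio of Psmb9 to Psmb6 was 0.132 ± 0.00819 in controls and 0.294 ± 0.0116 in knockouts of females, and 0.456 ± 0.0315 and 0.472 ± 0.0329 in those of males. The ratio of Psmb10 to Psmb7 was 0.714 ± 0.0200 in controls and 2.36 ± 0.168 in knockouts of females, and 3.62 ± 0.306 and 3.66 ± 0.357 in those of males (SD, n = 3). In females all 3 ratios were higher in every knockout library than in every control. Without the library labelled female knockout 3 the log2 differences were 0.89, 1.14 and 1.67 in place of 0.92, 1.16 and 1.73. An exact two-sided permutation test gave p = 0.1 for each, the smallest that 3 against 3 libraries allow, or 0.15 after Benjamini-Hochberg adjustment over 6 tests. In males the exact permutation p was 0.1, 0.5 and 0.9 for Psmb8, Psmb9 and Psmb10, with the first also without overlap (adjusted 0.15, 0.6 and 0.9).

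Genes that work with the members were read from lists drawn up by role. In males 0 genes of the lists given here passed. Of the 8 immunosubunit and activator genes, 6 rose and 1 fell in female knockouts. Psmb10 went from 32.5 ± 1.65 to 89.1 ± 7.0 FPKM (log2 difference 1.43, limma adjusted p = 7.01e-08), Psmb9 from 12.3 ± 1.44 to 32.3 ± 0.450 (1.33), Psme1, a subunit of the PA28 activator, from 39.2 ± 4.81 to 92.1 ± 4.03 (1.22) and Psmb8 from 35.4 ± 3.96 to 76.9 ± 3.74 (1.10) (SD, n = 3). Psme2, which also rose, has a near-identical copy in the mouse genome and its counts are uncertain. The differences of Psmb10, Psmb9, Psme1 and Psmb8 were larger in size than that of any member, and they were called under all 6 scalings.

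Other subunits and cofactors of the particle, 4 of 5 of which were tested, moved in both directions. Sem1, a small lid subunit, rose from 24.2 ± 1.63 to 35.6 ± 2.71 FPKM (log2 difference 0.54, limma adjusted p = 0.000130). The deubiquitinases Usp14, from 21.1 ± 1.94 to 14 ± 0.323 FPKM (-0.55), and Uchl5 (-0.27) fell, and the ubiquitin receptor Adrm1 had 0.08 without passing. Of the 20S assembly genes 2 of 5 tested rose and 2 fell. The maturation factor Pomp went from 26.5 ± 0.361 to 35.2 ± 0.211 FPKM (0.40, adjusted p = 9.07e-06) and Psmg4 had 0.53, while Psmg3 and Psmg2 had -0.43 and -0.29.

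In the pathway of NRF1, the factor that raises proteasome genes when proteolysis is short, 2 of 6 genes rose and 2 fell. Nfe2l1, which encodes NRF1, went from 36.2 ± 0.755 to 43.5 ± 1.30 FPKM (0.26, limma adjusted p = 0.000238), called under 5 of 6 scalings. Vcp, the unfoldase that extracts it from the membrane, had 0.21, called under 3 of 6, while Ddi2, the protease that cleaves it, had -0.16 and Nfe2l2 had -0.30. Of 6 tested shuttle and unfoldase cofactors 0 rose and 1 fell, Ubqln4 with -0.35.

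Some members share sequence or position with other genes, and no source used here gives the strand setting of the counting. Gm13835, a processed pseudogene that the table describes by its similarity to Psma3, had 71.4 to 89.9 FPKM, above Psma3 itself at 31.2 to 38.0 FPKM, so how reads were divided between them is uncertain. Psma5-ps and Gm12989, copies of Psma5, had 7.64 to 13.2 and 10.9 to 15.0 FPKM, and Gm3375, a copy of Psmb5, had 5.78 to 11 FPKM. For 4 members another gene of at least 1 FPKM on average overlaps them: AW209491 and Psma2, Nek6 and Psmb7 on opposite strands with 1.71 FPKM for Nek6, Slc39a13 and Psmc3 on opposite strands with 15.3 FPKM for Slc39a13, and both Gm15542 and Sirt3 with Psmd13.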

How the data were processed

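RNA sequencing of 12 libraries was read from 1 deposited table of FPKM per gene, made by the authors. Per the submitters' processing notes, HISAT2 2.0.5 aligned the reads, featureCounts 1.5.0-p3 counted them and the build was mm10. No source used here gives the exact FPKM denominator or the strand setting. The table gave 0 columns that could not be mapped and 1 line without a gene, which was left out. FPKM times gene length divided by the step of 1 read was whole within 0.01 for nearly all values, which gave the reads.

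Every gene that reached 1 FPKM in 3 or more libraries entered limma 3.58.1 in R 4.3.3 on log2(FPKM + 1), over all 12 libraries with 4 group means, a trend and no block. The two-sided p-values were adjusted by Benjamini-Hochberg over 12102 genes, with a threshold of 0.05. On this scale the change of low genes is understated. The step was tested on simulated data scaled by assigned reads. That test holds no difference in scaling between groups and so cannot judge the deposited scaling. Every adjusted p is from this model unless another tool is named. Intervals and limits from read counts cover counting error only.

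By their labels, libraries with equal replicate numbers share a batch, which pairs them. Deviations of same-numbered libraries from their group means correlated at 0.02 on average (-0.12 to 0.09) and those of other libraries at -0.01. Alternatives were the pseudocount, the filter, the library scaling, the block and leaving out each library.

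The members, lists and tests were chosen with earlier results of these data known. Named were the catalytic subunits, Psma8, Psmb11, the chaperones, Psmd14, the members with the highest and lowest mean, up to 5 members a direction with the smallest p in each comparison (filled to 3), and up to 4 genes of each list; other members were named after their values were seen. A further list is not reported here. Promoter windows are from RefSeq, GRCm38.p6. Gene positions of the table did not match mm10, so no other coordinates are given.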

Additional observations from a re-analysis of the deposited data

Results flagged for a closer look

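For 8 members the knockout effect differed between the sexes in a test of the difference itself (limma, adjusted p under 0.05 over all genes, where 34.6% of all genes passed). The female minus male difference was 0.36 for Psmb5, 0.22 for Psmd8, 0.25 for Psmc1, 0.24 for Psmd3 and 0.29 for Psmb2, and -0.30 for Psmd6, -0.28 for Psmb7 and -0.27 for Psmc6, in log2(FPKM + 1). The 3 negative differences passed under all 6 scalings, and none of the 5 positive ones did. No other member passed this test on the deposited scale.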

How the results depend on the processing

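The pseudocounts of 0.1 and 5 FPKM, the FPKM filter of 5 and the fit on the libraries of a comparison alone kept every count of called members within 1.5 times. Without a filter, 3 members had a higher knockout effect in females and 5 were lower in female than in male knockouts. With assigned reads, nuclear protein-coding reads and quantile normalization, in that order, the counts were as follows. Female knockout against control had 2, 2 and 0 higher, 11, 12 and 18 lower and a median of -0.088, -0.097 and -0.14. The difference of effects had 1, 1 and 0 higher, 5, 5 and 9 lower and a median of -0.049, -0.060 and -0.11. Female against male controls had 14, 15 and 16 higher, 5, 1 and 2 lower and a median of 0.11, 0.13 and 0.13. Female against male knockouts had 7, 9 and 5 higher, 3, 3 and 1 lower and a median of 0.030, 0.042 and 0.036.

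Leaving out each library in turn gave 4 to 9 higher and 4 to 5 lower members in female knockouts, 3 to 7 and 2 to 4 for the difference of effects, 3 to 4 and 14 to 16 between controls and 0 to 1 and 5 to 10 between knockouts; the medians ran from -0.01 to 0.04, 0.01 to 0.06, -0.12 to -0.08 and -0.09 to -0.06. In males it gave 0 and 0, with a median from -0.03 to 0.02. The male ratio of Psmb9 to Psmb6 ran from -0.0083 to 0.10 (log2, knockout minus control), with -0.0083 without male knockout replicate 1, and that of Psmb10 to Psmb7 from -0.052 to 0.089, with -0.037, -0.0049 and -0.052 without male control replicate 1, male control replicate 3 and male knockout replicate 1.

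The members called on the deposited scale that changed sign were the following. Under quantile normalization female minus male controls reversed to 0.031 for Psmc1, 0.029 for Psmb6, 0.072 for Psmb5, 0.057 for Psma5, 0.077 for Psmd13, 0.13 for Psmc5, 0.045 for Psmb1, 0.14 for Psmb2, 0.078 for Psma2 and 0.050 for Psmd3, female minus male knockouts to 0.0095 for Psmb4, and female knockout minus control to -0.0089 for Psmb4. With assigned reads the called members that reversed between controls were Psmd13 (0.054), Psmb1 (0.010), Psma2 (0.046) and Psmd3 (0.035), and with nuclear protein-coding reads Psmd13 (0.077), Psmb1 (0.033), Psma2 (0.069), Psmd3 (0.058), Psmc5 (0.00013) and Psmb2 (0.0042). A further 8 members without a call on the deposited scale also went from negative to positive between controls with both denominators (Psmc3, Psma1, Psmd11, Psmb3, Psmd9, Psmd7, Psmd2 and Psma6), with 0.14 for Psmd9 with nuclear protein-coding reads; the cause was not tested.

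With the batch as a replicate block, female knockouts had 10 higher and 5 lower members, adding Psma7, Psmb2, Psmd4 and Psma3, and the difference of effects 5 and 3, with Psmb4 in place of Psmd3; it changed no other call, leaving 3 and 16 between controls, 0 and 8 between knockouts and 0 and 0 in males, and the medians stayed at -0.01, 0.01, 0.05, -0.10 and -0.08. Median-ratio scaling was chosen after the data were seen. The tested members had 453 reads or more per value, and the part of counting error in their spread was not tested. Psma8 and Psmb11 were too low to compare.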

Other observations

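The ratio of Psmb5 to Psmb6, both read within a library, was 1.58, 1.61 and 1.45 for male controls and 1.36, 1.32 and 1.37 for male knockouts, without overlap, and 1.62, 1.78 and 1.47 for female controls and 1.53, 1.59 and 1.64 for female knockouts, with overlap. It was chosen after the values were seen and has no test.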
